A study of Mus musculus with 45 samples.

Results

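The genes described here encode 5 members of the S100 family, S100a1, S100a6, S100a10, S100a11 and S100a13, in single mouse embryos cut into serial sections along the proximal-distal axis. They were taken by gene symbol. All 5 were present in each of the 3 deposited tables, which held 10176 genes for the E5.25 embryo, 13060 for E5.5, 13618 for E5.75 and 15997 different genes in all. The set was chosen by measured levels, the rise of S100a6 toward the trophoblast end of the axis and the high level of S100a13 in visceral endoderm, so those patterns are given as a description without a test. The VE libraries are 2 samples of visceral endoderm, the outer epithelium of the egg cylinder, taken from sections 6 and 7 of the E5.75 embryo. Tissue was collected by laser capture microdissection from untreated embryos freed from the decidua and frozen, and RNA was read with Smart-seq2, a low-input method for polyadenylated RNA. The E5.25 embryo gave 7 section libraries, the E5.5 embryo 10 columns covering 9 section numbers, and the E5.75 embryo 17 section columns beside the VE libraries. Strain is not stated in the labels, and nothing in them points to more than 1 embryo per stage. Replicates of a section or a stage are therefore lacking, and every p-value below compares sections of 1 embryo.

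S100 proteins are small calcium sensors built around a pair of EF-hand loops. They usually work as dimers that, on binding calcium, expose a surface for a partner protein, and several of them bind annexins, the calcium-dependent membrane-binding proteins. S100a10, also called p11, is the exception that no longer binds calcium and forms a complex with annexin A2 at the plasma membrane. S100a6, or calcyclin, binds the ubiquitin ligase adaptor encoded by Cacybp, S100a11 binds annexin A1, and S100a13 takes part in the leaderless export of FGF1. S100a1 is best known from heart muscle, where it binds the calcium pump encoded by Atp2a2. At these stages the egg cylinder consists of epiblast toward the distal tip, extraembryonic ectoderm and ectoplacental cone of trophoblast origin toward the proximal end, and visceral endoderm around them. The decidua is the maternal tissue in which the embryo lies.

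All 5 genes lie on chromosome 3 (mm10, GENCODE M21 annotation). S100a1 spans 90511034 to 90514392 on the minus strand. S100a13 starts 42 bases beyond it, at 90514435 to 90524581 on the plus strand, so the pair is divergent. S100a6 follows at 90612882 to 90624181, S100a11 at 93520488 to 93526287 and S100a10 at 93555080 to 93564643, all on the plus strand. The upstream sequence is shown for S100a11 because its level was high in only the last sections at E5.75, for S100a6 as the most abundant member, and for the stretch shared by S100a1 and S100a13 because these neighbours had different patterns. Sequences are from RefSeq (GRCm38.p6), plus strand, 5′ to 3′, and end at the base before the GENCODE start, which for S100a6 and S100a11 lies upstream of the RefSeq start. Capitals mark the AP-1 motif TGANTCA, searched on both strands over the RefSeq promoter window of 300 bases.
S100a11, chr3:93520246-93520487: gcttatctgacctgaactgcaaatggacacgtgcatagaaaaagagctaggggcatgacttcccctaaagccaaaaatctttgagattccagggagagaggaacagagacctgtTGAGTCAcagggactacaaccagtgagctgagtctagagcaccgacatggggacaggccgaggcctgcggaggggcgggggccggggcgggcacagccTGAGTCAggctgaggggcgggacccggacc
S100a6, chr3:90612644-90612881: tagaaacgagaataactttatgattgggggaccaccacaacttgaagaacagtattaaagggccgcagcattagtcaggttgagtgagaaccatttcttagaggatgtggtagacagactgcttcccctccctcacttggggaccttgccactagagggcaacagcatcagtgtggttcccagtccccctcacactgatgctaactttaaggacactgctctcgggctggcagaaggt
S100a1 to S100a13, chr3:90514393-90514434: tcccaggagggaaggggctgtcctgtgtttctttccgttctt

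The S100a11 sequence held the motif at 2 places, which begin 128 and 30 bases before the GENCODE start. Of 32851 mouse promoter windows of the same length, 7.81% held TGANTCA at least once and 0.46% at 2 or more places. The windows of S100a1, S100a6 and S100a13 had no match to it, and none of the 4 windows had GCCNNNGGC, the palindrome bound by TFAP2 factors, or TATAAA, which 16.6% and 13.6% of all windows held. These matches describe letters only. S100a10 was not in the promoter table. Smart-seq2 reads carry no strand, so reads from transcripts that overlap between S100a1 and S100a13 cannot be told apart. RefSeq gene models, predicted ones included, overlap there by 98 bases.

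Levels are given as deposited, as log2(FPKM + 1), where FPKM is fragments per kilobase of transcript scaled to the library total, so genes can be compared with each other per length. Read depth is unknown. A value of 0 can be a failed estimate rather than absence, since sections with few detected genes stood apart. In E5.25 sections 1 to 4, between 2046 and 4282 genes reached 1 FPKM, and in its sections 6 to 8 between 5636 and 6461. E5.5 sections 1 to 5 had 2288 to 4954 such genes, and those numbered 6 and higher had 5950 to 6467. The VE libraries of E5.75 had 1496 and 2147, against 3211 and 3424 in sections 1 and 2 and 5303 to 8217 in the other sections. The ribosomal RNA precursor Rn45s made up 62.2% and 48.8% of the summed FPKM in the VE libraries. In tissue of this kind, fewer cells of a type and less RNA per cell cannot be told apart.

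At E5.75, the stage with the most sections, the 5 genes followed different courses. S100a6 and S100a13 were high in every section numbered 10 to 19, which carried extraembryonic ectoderm markers. S100a10 was detected along most of the axis, S100a11 was high only toward section 19, and S100a1 was scattered among high and zero sections. The extraembryonic ectoderm list, fixed with Elf5, Eomes and Fgfr2 among its 8 genes, had a summed log2 level between 7.27 and 8.58 in sections 10 to 19, against 1.46 to 3.09 in sections 3 to 8. Sections 9 and 13 were not analysed here. The labels do not say which end section 1 is.

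S100a6 was the most abundant of the 5. Its log2 level in sections 10 to 19 was 5.87 at the lowest, 7.69 at the median and 9.19 at the highest, against 0.43, 2.06 and 4.73 in sections 3 to 8. The ranges did not touch. Section 19 had 583 FPKM, which made S100a6 the gene of rank 85 in that library. In each of the 9 sections from 10 to 19 it stood above each of the other 4 members. It was uneven on the epiblast side, where sections 4 and 6 had log2 levels of 4.59 and 4.73 while sections 5 and 8 had 0.43 and 1.08.

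S100a13 stepped up at the same border. Its log2 level in sections 10 to 19 was 4.08 at the lowest, 5.09 at the median and 5.61 at the highest, against 0, 0 and 0.98 in sections 3 to 8. Its SD over those 9 sections was 0.50 on the log2 scale, the smallest of the 5 members. The next smallest was 0.95 for S100a6. Section 1 had a log2 level of 3.17, and section 2 was at 0. Visceral endoderm markers summed to a log2 level of 9.15 in section 1, with 4 of 12 at or above 1 FPKM. Parietal endoderm markers summed to 8.59 there, with 5 of 8 at or above 1 FPKM, and the blood and leukocyte list to 7.87. The part of such RNA in the S100a13 level of section 1 was not tested. Across the border itself, sections 10, 11 and 12 had log2 levels of 4.33, 4.08 and 5.24, whereas sections 6, 7 and 8 were each at 0. For S100a6 and S100a13 the ranges did not overlap between these parts of the embryo. The share of all genes with such ranges was not counted, so whether this sets them apart is unknown. The choice of genes used the course along these sections. In the trend over all 17 sections, a different measure, 18.9% of 11149 genes tested rose.

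S100a10 was present on both sides of the border. Its log2 level in sections 10 to 19 was 4.34 at the lowest, 5.46 at the median and 7.53 at the highest, against 0.71, 4.25 and 4.92 in sections 3 to 8. The ranges overlapped, and no other member had so high a median in sections 3 to 8. Its highest levels, 7.53 and 7.41 on the log2 scale, were in sections 18 and 19. Section 1 was at 0 and section 2 had a log2 level of 3.76.

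S100a11 was high over a shorter stretch. Sections 1 to 8 ranged between 0 and 1.20 in log2 level, and sections 10 and 12 were also at 0. Sections 11, 14, 15 and 16 had log2 levels of 2.75, 4.71, 1.23 and 3.80, and sections 17, 18 and 19 had 6.26, 8.03 and 7.79. In section 18 S100a11 nearly matched S100a6, whose log2 level was 8.20. Elf5, a transcription factor of extraembryonic ectoderm, already had a log2 level of 5.23 in section 10, 5.39 in section 11 and 4.42 in section 12.

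S100a1, the neighbour of S100a13, did not share its plateau. Its log2 levels in sections 10, 11 and 12 were 5.12, 1.27 and 0, in sections 14, 15 and 16 they were 6.13, 0 and 3.68, and in sections 17, 18 and 19 they were 4.77, 4.41 and 6.69. In sections 12 and 15, where S100a1 was at 0, S100a13 had log2 levels of 5.24 and 5.09. On the epiblast side S100a1 was at 0 in sections 1 to 6 and had log2 levels of 1.69 and 1.91 in sections 7 and 8.

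**Figure D1:**
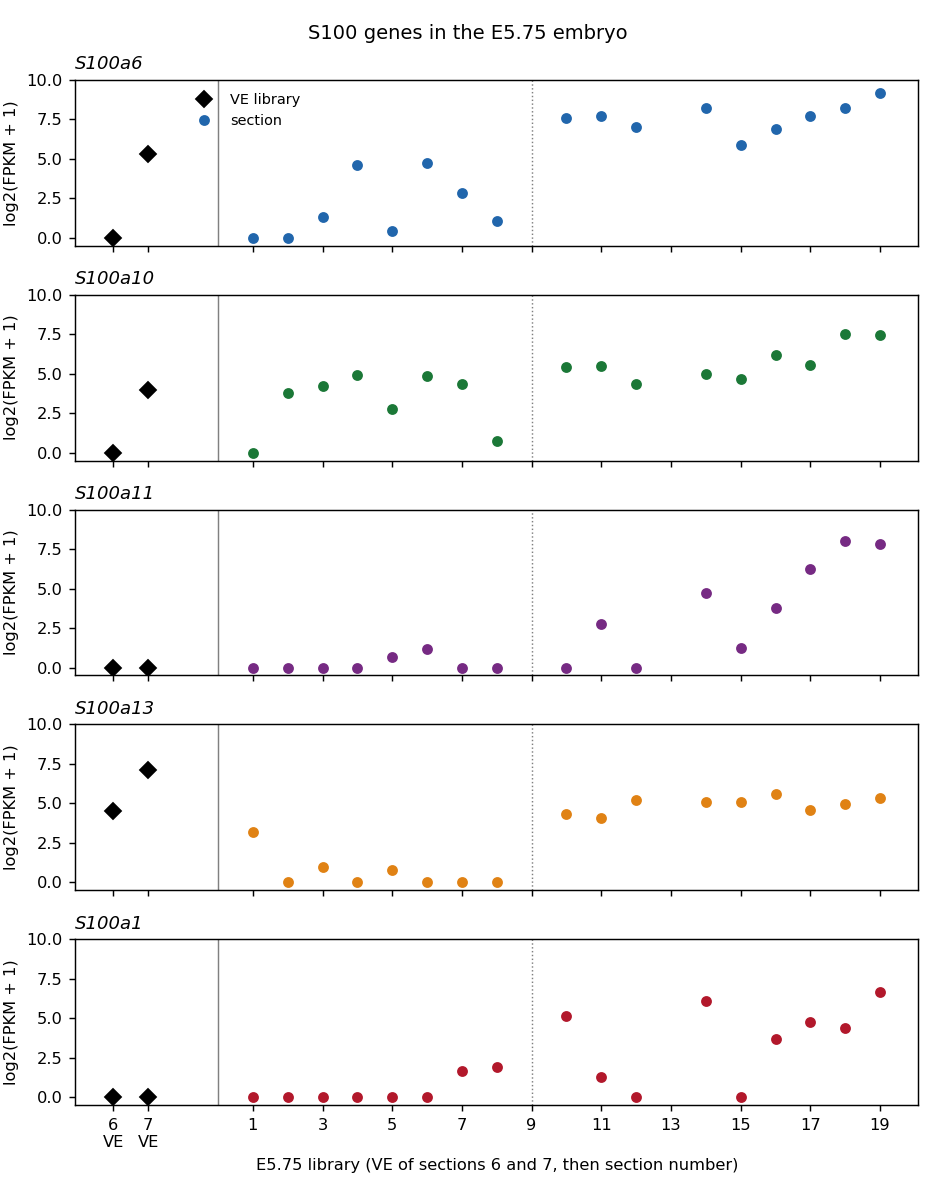
Levels of the 5 S100 genes as log2(FPKM + 1) in each E5.75 library, with the VE libraries (black diamonds) at the left and sections (coloured points) by number; the dotted line stands at section 9, which has no value. S100a13 is flat between 4.08 and 5.61 from section 10 on, S100a11 climbs late to 7.79 in section 19, and S100a1 alternates between high values and 0.

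Fitted along the whole axis, the E5.75 changes from the lowest to the highest section number were 8.65 ± 1.12 for S100a6, 7.23 ± 1.14 for S100a11, 5.81 ± 0.99 for S100a13, 5.53 ± 1.15 for S100a1 and 4.27 ± 0.98 for S100a10 (log2 change ± SE, limma, 17 sections). The median over all genes tested was 0.80. These changes carry no test, because the members were chosen with this contrast. Sections 14 and 19 held the highest S100a1 levels, and without them its log2 change was 4.26 ± 1.14, while that of S100a13 was 5.83 ± 1.15.

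Pairwise, within the 9 sections from 10 to 19, S100a13 gave Pearson r between -0.06 and 0.23 with the other members. Leaving out the 2 sections where the other gene was farthest from its median, r was 0.50 with S100a1 and -0.38 with S100a6. Leaving out those where S100a13 was farthest, r was -0.055 with S100a1 and -0.049 with S100a6. The values thus depend on which few sections are taken. S100a10 and S100a11 gave r = 0.81 (Spearman rho 0.81), and S100a1 and S100a6 gave r = 0.79 (rho 0.75). Leaving out the 2 sections whose first-named gene was farthest from its median, these became 0.49 and 0.59. All such correlations describe sections of 1 embryo that share a table and a scaling.

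S100a1 had its closest match in another S100 gene. Among 3912 genes with a mean of at least 5 FPKM over the 17 sections, S100a4 was most like it (r = 0.93), ahead of Cryab (0.90), Ccl27a (0.90), Prl8a2 (0.88) and Krt19 (0.88). S100a4, known in mouse fibroblasts and motile cells, binds nonmuscle myosin. Its log2 levels in sections 10, 11 and 12 were 4.66, 0 and 0, in sections 14, 15 and 16 they were 5.16, 0 and 4.97, and in sections 17, 18 and 19 they were 3.34, 4.48 and 6.73. Within sections 10 to 19 S100a1 and S100a4 gave r = 0.95 and rho = 0.87 (n = 9). Without the 2 sections where S100a4 was farthest from its median, r was 0.92.

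Cryab, the small heat shock protein alpha-B crystallin, and Prl8a2, a prolactin-like hormone of mouse decidua, belong to the decidua marker list. Cryab had its highest log2 levels, 6.07 and 6.81, in sections 14 and 19, and so did Prl8a2, with 6.17 and 7.46. In section 12 both were at 0, and in section 15 they had log2 levels of 0.89 and 0.67. The list held 8 of its 11 genes in the table, and its summed log2 level was 2.19 to 8.30 in sections 10 to 19, against 1.63 to 4.11 in sections 3 to 8. In sections 14 and 19 Cryab and Prl8a2 made up most of this sum, so it largely repeats their likeness to S100a1. The summed level gave r = 0.92 and rho = 0.85 with S100a1 over sections 10 to 19 (n = 9). Without the 2 sections where the sum was farthest from its median, r was 0.87. With S100a6 the sum gave r = 0.84 (0.59 without the 2 farthest sections), with S100a11 0.74 (0.61), with S100a10 0.68 (0.41) and with S100a13 0.34 (0.35). The summed ectoplacental cone and trophoblast list gave r = 0.61 and rho = 0.36 with S100a1. Without the 2 sections farthest for that list, r was 0.83. Of the 8 decidua genes in the table, 5 reached 1 FPKM in section 14, 6 in section 16 and 5 in section 19. In section 12 there was 1, and in section 15 there were 0. Dcn, the proteoglycan decorin of stromal cells, was at 0 in every section from 10 to 19. Hoxa10 was at 0 in all of these except section 16, with a log2 level of 1.92. The part of decidual RNA in the S100a1 levels was not tested.

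**Figure D2:**
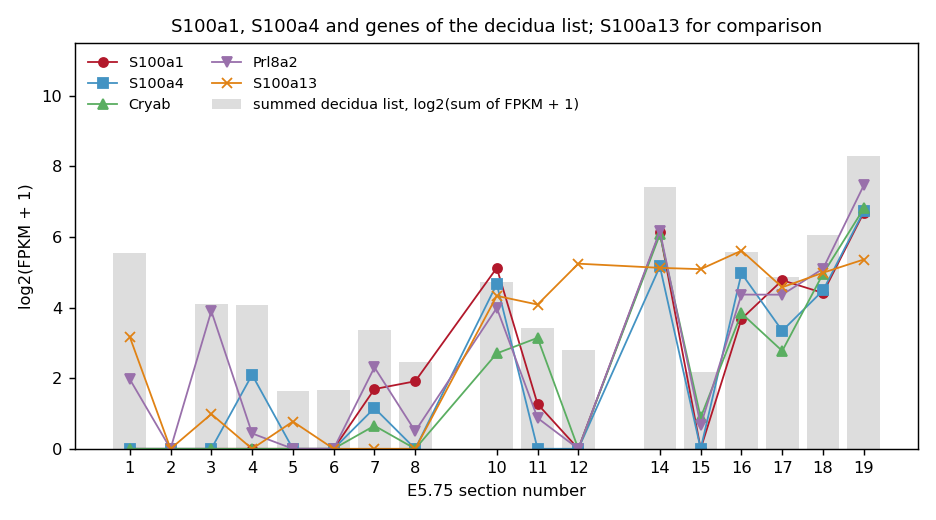
Levels of S100a1, S100a4, Cryab, Prl8a2 and S100a13 as log2(FPKM + 1) by E5.75 section number, over grey bars for the summed decidua list. S100a1, S100a4, Cryab and Prl8a2 peak together in sections 14 and 19 and dip together in sections 12 and 15, where S100a13 stays above 5.

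S100a11 was most like Gata2 (r = 0.97), a transcription factor of trophoblast, and then Cdh5 (0.96), Krt19 (0.92), Yif1b (0.92) and Neat1 (0.91). Gata2 belongs to the list of 10 ectoplacental cone and trophoblast genes, whose summed log2 level in sections 10 to 19 gave r = 0.92 and rho = 0.92 with S100a11 (n = 9), and r = 0.97 without the 2 farthest sections. In sections 17, 18 and 19 that sum was 10.1, 10.9 and 10.9 on the log2 scale, and in sections 10, 11 and 12 it was 5.96, 5.97 and 6.01. For S100a6 the same measure named Satb1 (0.95), Ddah1 (0.94), Ctdspl (0.93), Ncoa3 (0.93) and Igf2 (0.93). For S100a10 it named Tacc1 (0.88), Ywhab (0.87), Srpr (0.86), Krt8 (0.86) and Nars (0.83). For S100a13 it named, among others, Slc22a17 (0.96), Trap1a (0.95), Tinagl1 (0.94) and the FGF receptor Fgfr2 (0.93). Ranked by Spearman rho instead, 1 of these 5 genes remained among the closest for S100a1, 1 for S100a11, and 0 for S100a6, S100a10 and S100a13.

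In the VE libraries S100a13 was the only member found in both. Its log2 levels in the VE of sections 6 and 7 were 4.54 and 7.13, that is 22.2 and 139 FPKM, against 0 in each of sections 6 and 7. S100a6 had log2 levels of 0 and 5.31 in the VE of sections 6 and 7, against 4.73 and 2.83 in sections 6 and 7, and S100a10 had 0 and 3.97 against 4.86 and 4.32. S100a1 was at 0 in both VE libraries, against 0 and 1.69 in sections 6 and 7, and S100a11 was at 0 in both, against 1.20 and 0. The VE minus section difference was 5.83 ± 1.13 for S100a13, -1.12 ± 2.31 for S100a6 and -2.60 ± 1.68 for S100a10 (log2 ± SE, limma), with no test because S100a13 was chosen for it. The S100a6 and S100a10 differences depended on the VE library taken. Without the VE of section 6 they were 1.53 and -0.62, and without the VE of section 7 they were -3.78 and -4.59. S100a1 and S100a11 fell below the filter of 1 FPKM in at least 2 of the 4 libraries. In this contrast 56.6% of 6413 genes tested were lower in VE, and the median gene differed by -2.09.

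The VE libraries matched their label in part. The VE of section 6 had 6 of 12 visceral endoderm markers at or above 1 FPKM and the VE of section 7 had 7, but Afp, Ttr, Amn, Sox17, Foxa2 and Hnf4a were at 0 in the VE of section 6. Of 10 ectoplacental cone and trophoblast genes 8 were at 0 in each VE library, and the hormone gene Prl3d1 had log2 levels of 9.17 and 5.81 in the VE of sections 6 and 7. The blood and leukocyte list, with 3 of its 8 genes in the table, summed to a log2 level of 12.1 and 2.47 in the VE of sections 6 and 7, against 0.63 and 1.83 in sections 6 and 7. In the VE of section 6 that sum came from alpha-globin alone, and it exceeded the summed log2 level of 8.26 for the visceral endoderm list. The parietal endoderm list summed to log2 levels of 8.35 and 7.08 in the VE of sections 6 and 7, and the epiblast list to 7.71 and 7.87. The part of such RNA in the S100 levels was not tested. In sections 18 and 19, where 11 of 12 visceral endoderm markers were at 0 and only Apoe was detected, S100a13 had log2 levels of 4.99 and 5.36. Across all 19 libraries of E5.75, the genes most like S100a13 were Xlr3a (r = 0.89), Dsp (0.88), H19 (0.88), Gpx4 (0.85) and Slc16a1 (0.82), none of which was among its 5 closest over sections alone.

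At E5.5 the 4 members that could be tested all rose with section number, against a background of 28.3% of 8251 genes tested. For S100a1 and S100a13 this count is limited, since they passed the filter on low values through the higher sections only. Tables were normalized separately by stage, so levels at different stages are set side by side without a comparison. S100a1 had a log2 level of 0 in sections 1, 2 and 4 and 1.22 in section 5, and from section 6 to section 9 it had 4.87, 4.10, 2.27 and 5.61. S100a11 had log2 levels of 0, 0, 2.78 and 2.83 in sections 1, 2, 4 and 5, and then 5.71, 6.41, 5.52 and 6.29 in sections 6 to 9. S100a13 had log2 levels of 0, 0, 0 and 1.71 in sections 1, 2, 4 and 5, and then 3.24, 4.23, 4.13 and 3.46. Sections from 6 on also had more detected genes, and the share of all genes with higher levels there was not counted.

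S100a10 appeared earlier along the axis, with log2 levels of 0, 1.37, 5.26 and 6.08 in sections 1, 2, 4 and 5, and then 5.89, 6.87, 6.27 and 6.90 in sections 6 to 9. S100a6 had log2 levels of 0, 0.90, 0 and 5.55 in sections 1, 2, 4 and 5, and then 6.61, 6.73, 7.12 and 7.50. The last section number, 10, is the mean of 2 columns, whose log2 levels were 4.14 and 4.88 for S100a1, 6.62 and 7.32 for S100a6, 5.42 and 6.58 for S100a10, 6.77 and 7.29 for S100a11 and 4.85 and 4.96 for S100a13. For the other E5.5 sections labelled with parts A and B there is 1 column each, and whether it holds one part or both is not stated.

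In the limma fit over 9 section numbers the log2 change was 7.64 ± 1.0 for S100a11 (adjusted p = 0.000547), 5.43 ± 0.91 for S100a13 (adjusted p = 0.000999), 6.19 ± 1.25 for S100a10 (adjusted p = 0.00251) and 5.64 ± 1.17 for S100a1 (adjusted p = 0.00293). That of S100a6 was 8.51 ± 1.35 and was not tested. All 5 passed the filter on low values. S100a1, S100a6 and S100a13 reached 1 FPKM in none of sections 1, 2 and 4, so they passed it through the higher sections only. Such a filter favours a rise, which limits the p-values of S100a1 and S100a13. The median change of all genes was 1.22 on the log2 scale, and the number of detected genes moved with section number too. With that number as a covariate 0 genes were called by limma (411 at an unadjusted p under 0.05), and the log2 changes were 4.46 for S100a11, 4.16 for S100a13, 3.17 for S100a1 and 0.93 for S100a10 (limma adjusted p 0.829 to 0.943). Within sections 6 to 10 alone, an alternative chosen after seeing the data, the log2 changes were 0.71 for S100a1, 0.23 for S100a10, 2.26 for S100a11 and 2.30 for S100a13 (limma adjusted p 0.960 to 0.998, with 0 genes called and 354 at an unadjusted p under 0.05).

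At E5.25 the fitted change was positive for all 5 members, and 0 of the 4 tested passed limma's adjusted threshold at a stage where 0.378% of 7148 genes tested rose. All 4 had an unadjusted p under 0.05, as did 2493 genes in all. S100a13 had a log2 level of 0 in sections 1 to 4 and 4.08, 4.92 and 3.69 in sections 6, 7 and 8. S100a1 was at 0 in sections 1 to 4 and had log2 levels of 3.66, 3.71 and 1.40 in sections 6 to 8, and S100a11 had 0, 0, 0 and 1.5, and then 4.86, 4.78 and 3.29. S100a6 had log2 levels of 0, 2.21, 0 and 0, and then 6.29, 6.76 and 5.99. S100a10 was present in 1 of the low-numbered sections, section 3, with a log2 level of 6.11, and had 6.39, 5.01 and 6.03 in sections 6, 7 and 8. Sections 6 to 8 also had more detected genes than sections 1 to 4. The share of all genes with higher levels there was not counted, so no count of members is drawn from these values.

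The E5.25 log2 changes over 7 sections were 5.41 ± 1.46 for S100a13, 5.21 ± 1.51 for S100a11, 6.0 ± 2.0 for S100a10 and 3.40 ± 1.32 for S100a1, with limma adjusted p values of 0.0549, 0.0588, 0.0644 and 0.0836. S100a6 changed by 7.27 ± 1.80 and was not tested. S100a1 and S100a13, at 0 in sections 1 to 4, passed the filter through sections 6 to 8 only. Among sections 1 to 4, S100a10 reached 1 FPKM only in section 3 and S100a11 only in section 4. These 2 genes therefore also needed sections 6 to 8 to pass. Such a filter favours a rise, which limits the p-values of all 4 tested members.  With detected genes as a covariate the log2 changes were 3.99 for S100a11, 3.10 for S100a13, 1.05 for S100a1 and 0.0090 for S100a10 (limma adjusted p 0.631 to 0.9995), and 3.35 for S100a6. Without sections 1, 2 and 4, which had the fewest detected genes, section 3 stayed in the fit and the S100a10 change was -0.62 (limma adjusted p = 0.786).

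**Figure D3:**
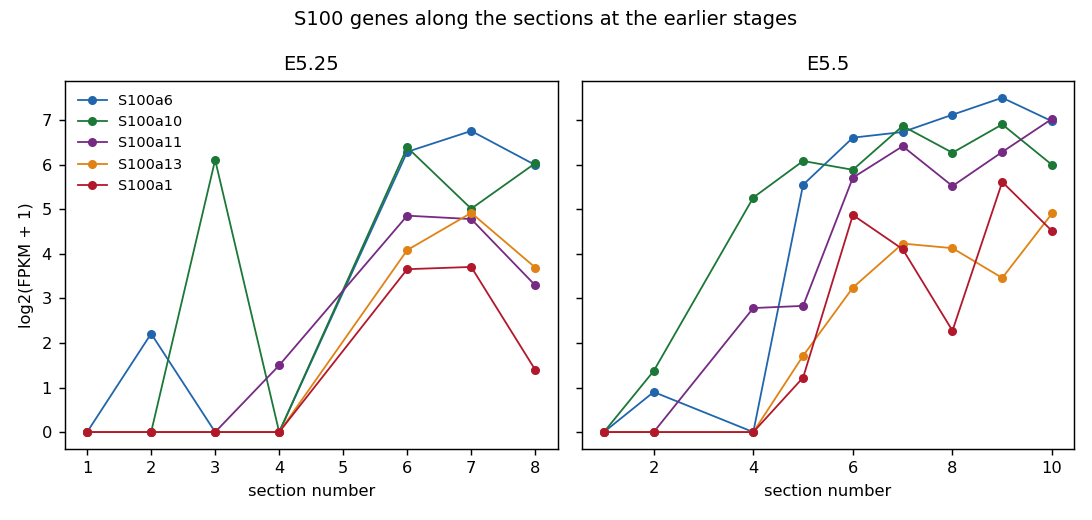
Levels of the 5 S100 genes as log2(FPKM + 1) by section number at E5.25 (left) and E5.5 (right), with the 2 columns of E5.5 section 10 averaged. S100a10 reaches 6.11 in section 3 at E5.25 and 5.26 in section 4 at E5.5, ahead of the other members along the axis.

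The order of the members in the high-numbered sections was compared per length within each stage. S100a6 had the highest median log2 level at each, 6.29 in E5.25 sections 6 to 8, 6.97 in E5.5 sections 6 to 10 and 7.69 in E5.75 sections 10 to 19. S100a11 was second at E5.5 with a median of 6.29, next to S100a10 with 6.27, and was last at E5.75 with 3.80. S100a11 ranged from 0 to 8.03 in those E5.75 sections, so its place there depends on which sections are taken. S100a1 and S100a13 were the lowest at E5.25 and E5.5, with medians of 3.66 and 4.08 at E5.25 and 4.51 and 4.13 at E5.5.

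The rest of the S100 family was mostly missing or low. Of 11 further S100 genes, 4 were listed at E5.25, 6 at E5.5 and 6 at E5.75. At E5.75, where 18.9% of all genes tested rose, 1 of 2 rose, S100a4, with a log2 change of 5.08 ± 1.18 (limma adjusted p = 0.00457), while S100a8, a neutrophil protein, changed by 1.16 ± 1.35. At E5.5, beside 28.3% of all genes, 1 of 6 rose, S100a8, by 8.26 ± 1.27 (limma adjusted p = 0.000775). S100a8 had a log2 level of 0 in sections 1, 2 and 4 and 8.59 in section 9. Like S100a1 and S100a13, it passed the filter through the higher sections only, which limits its p-value. With detected genes as a covariate 0 of the 6 passed in limma (2 at an unadjusted p under 0.05). At E5.25, 0 of 1 tested rose, nor had it an unadjusted limma p under 0.05. The median change of the list was 3.12 at E5.75 and 1.88 at E5.5, beside 0.80 and 1.22 over all genes. Within sections 10 to 19 alone 0 of the 2 passed in limma (1 at an unadjusted p under 0.05).

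Annexins rose at E5.75 in 6 of the 8 tested, beside 18.9% of all genes. Anxa2, the partner of S100a10, changed by 6.81 ± 1.06 and Anxa5 by 5.56 ± 0.90, ahead of Anxa7 (3.82 ± 0.84) and Anxa6 (2.80 ± 0.62) on the log2 scale, and Anxa9 and Anxa11 did not pass. The list's median change was 2.41, against 0.80 over all genes. Anxa2 was at 0 in sections 5 to 8 while S100a10 had log2 levels of 2.74, 4.86, 4.32 and 0.71 there. In the VE of section 6 the reverse was seen, with Anxa2 at a log2 level of 8.87 and S100a10 at 0. With detected genes as a covariate 2 annexins passed, and within sections 10 to 19 alone 0 passed in limma, or 0 at an unadjusted p under 0.05. At E5.5, 4 of 6 annexins rose, beside 28.3% of all genes. At E5.25 0 of 6 rose, with 4 at an unadjusted limma p under 0.05. In the VE comparison 1 of 2 annexins tested, Anxa7, was lower in VE, as were 56.6% of all genes.

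Of the binding partners of S100 proteins, 5 of 11 tested rose at E5.75, beside 18.9% of all genes, and none fell. Ahnak, a scaffold that the complex of S100a10 and annexin A2 holds at the membrane, changed by 4.38 ± 0.65 on the log2 scale. Stip1, a co-chaperone, changed by 2.22 and Atp2a2 by 1.89, and the others were Anxa2 and Anxa6. Leaving out any 1 of sections 1, 11, 14, 16, 17, 18 and 19 left 3 of them. Cacybp, the partner of S100a6, did not pass at E5.75 but rose at E5.5 by 3.83 ± 0.99 (limma adjusted p = 0.00926), where 4 of 9 partners rose, beside 28.3% of all genes. At E5.25, 0 of 9 rose, with 6 at an unadjusted limma p under 0.05. In VE, 3 of 7 were lower, Cacybp with a log2 difference of -6.28 ± 0.48, Atp2a2 and S100pbp, a share below the 56.6% of all genes, and the list's median of -2.13 was near the -2.09 of all genes.

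Other EF-hand proteins rose in 10 of 18 tested at E5.75 and 10 of 16 at E5.5, beside 18.9% and 28.3% of all genes, with medians of 2.15 and 2.95 on the log2 scale, and in 0 of 15 at E5.25 (9 at an unadjusted limma p under 0.05). Efhd2 (6.27 ± 0.70), the calpain Capn2 (4.76 ± 0.62), sorcin, encoded by Sri (4.38 ± 0.66), and Hpcal1 (3.79 ± 0.71) had the smallest p values at E5.75. At E5.75 5 passed with detected genes as a covariate and 6 without sections 1 and 2. In VE 8 of 11 were lower, none higher, in a comparison where 56.6% of all genes were lower.

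**Figure D4:**
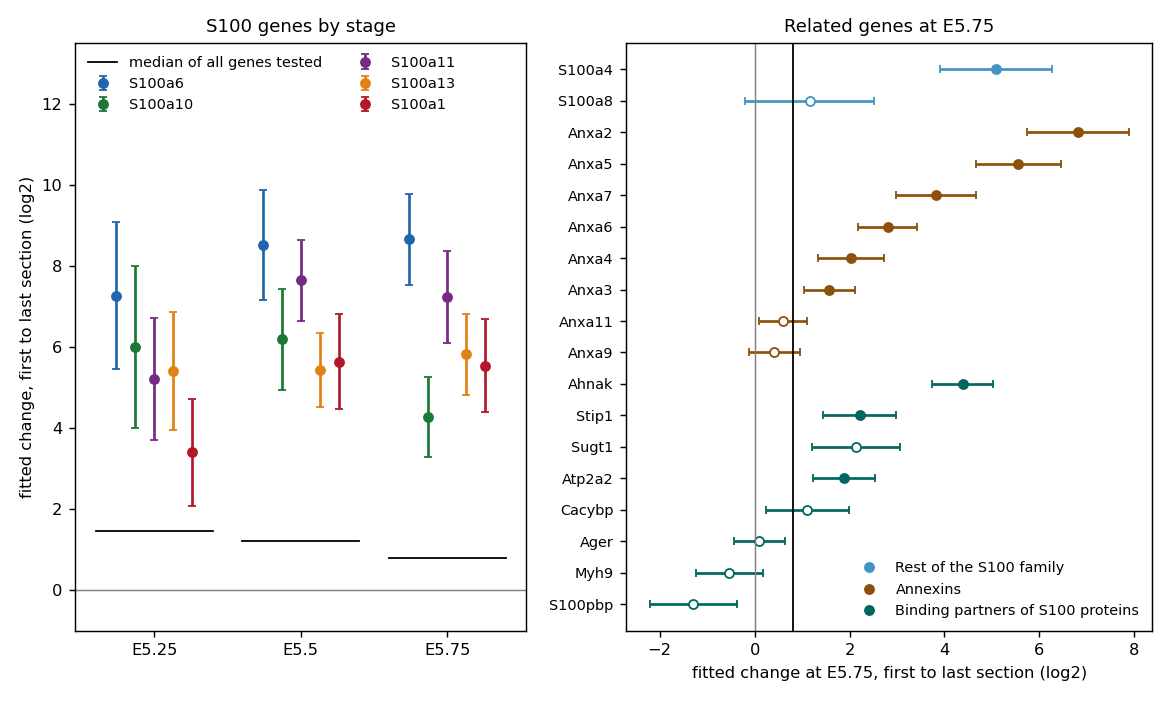
Left, fitted log2 change from the lowest to the highest section number with its SE for the 5 S100 genes at each stage, with a black line at the median of all genes tested. Right, the same at E5.75 for the rest of the S100 family, annexins and binding partners (filled, passed the test; open, did not; Anxa2, Anxa6 and Anxa11 are also on the partner list; black line, median of 0.80). S100a6, at 8.65, and Anxa2, at 6.81, have the largest values of their panels at E5.75.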

How the data were processed

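Smart-seq2 RNA-seq was run on embryo sections of 3 stages and on VE. The authors deposited 1 table per stage holding log2(FPKM + 1) per gene; that scale was read from the values. Per the submitters' processing notes, mm10, Cufflinks 2.0.2 and TopHat2 2.0.4 were used, without roles. Counts and read depth are not given in the sources used here, so no interval on depth is given. Smart-seq2 and microdissection are per the labels' protocols.

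Genes reaching 1 FPKM in at least 2 fitted samples were tested with limma 3.58.1 (R 4.3.3) on the log2(FPKM + 1) scale, with a pseudocount of 1, eBayes with trend, 2-sided, Benjamini-Hochberg adjusted p under 0.05. On this scale the change of low genes is understated. Stages were fitted alone. A change is the slope over section number rescaled from 0 to 1, and VE was set against sections 6 and 7. The section fits were tested on simulated data with normal noise, from which genes of low mean level were left out. That test does not cover genes with many zeros, S100a1 and S100a13 among them. Most E5.5 sections are labelled with parts A and B but have 1 column, which does not say whether it holds one or both. The last 2 columns were averaged as section 10, since for the last one the title gives section 10 and the source name section 11. Pairing by section number in the VE comparison rests on labels that place VE in the same sections. Across genes, the deviations of the section 6 libraries from their group means gave r = 0.000773. With 2 libraries per group, those of section 7 are the same with opposite sign, so this value says little about pairing.

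The members and lists were chosen with earlier results of these data known. Besides the 5 members, up to 4 genes per list with the smallest p in a comparison are named, and for each member the 5 named genes most like it by Pearson r (mean of at least 5 FPKM). For S100a13, 1 of these is not reported here. Single genes quoted as markers or exceptions beyond this rule were chosen after their values were seen. Alternatives included other pseudocounts (0.1, 5), the filter dropped or set at 5 FPKM, quantile or common-sum scaling, no trend, detected genes as a covariate, subsets of sections and leaving out each library.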

Additional observations from a re-analysis of the deposited data

How the results depend on the processing

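At E5.25, 29 genes were called, and 1006 with a pseudocount of 0.1, 0 with a pseudocount of 5, with no filter, with quantile normalization or with detected genes as a covariate (2258, 2365, 1589 and 599 at an unadjusted limma p under 0.05), 877 with a filter at 5 FPKM, 514 without the eBayes trend, 297 by rank order of sections, and 3 to 818 leaving out 1 section (185, 505, 818, 3, 7 and 102 without sections 2, 3, 4, 6, 7 and 8). There S100a1, S100a10, S100a11 and S100a13 passed in 1, 3, 4 and 6 of 17 alternatives, and S100a10 reversed to -0.62 without sections 1, 2 and 4. At E5.5, 2547 genes were called (2332 up, 215 down), 1179 with quantile normalization (850 up, 329 down), 1476 with a common sum, 0 with the covariate or in sections 6 to 10 only, and 1703 to 2584 leaving out 1 section. Each of these 4 members passed in 19 of 21 alternatives at E5.5. At E5.75, 2339 genes were called (2108 up, 231 down), 1341 with quantile normalization (842 up, 499 down), 624 with the covariate (405 up, 219 down), 1407 without the sections of low detection (1033 up, 374 down), 1 in sections 3 to 8, 166 in sections 10 to 19 and 1677 to 2487 leaving out 1 section. For VE, 3671 genes were called, 1688 with a filter at 5 FPKM, 0 with quantile normalization (3090 at an unadjusted limma p under 0.05), 2297 against sections 3 to 8, 3800 with a block for section number, and 2 to 5624 leaving out 1 library (2 without section 6 or 7, 5624 without the VE of section 7). Quantile normalization moved the median log2 change of all genes to 0.38, 0.44 and 0.16 in the E5.25, E5.5 and E5.75 trends, beside 1.45, 1.22 and 0.80 as deposited, and to -0.63 in VE, beside -2.09; the 5 members stayed positive in each trend under this and the common-sum scaling. The causes of these shifts were not tested. Depth is unknown, stages hold 1 embryo each, and low-numbered sections with few detected genes carry most zeros.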
